A study of Mus musculus with 16 samples.

Results

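The response of footpad epidermal cells to papain was examined in mice fed a diet poor in ligands of the aryl hydrocarbon receptor (AhR), by comparing 4 papain-injected mice with 4 vehicle-injected mice. These 8 libraries, chosen by their labels for diet and treatment, were part of a series of 16. The other 8 came from mice whose purified chow also held indole-3-carbinol (I3C, 200 ppm), a source of AhR ligands, and are used only to ask whether the response differed between the diets. All genes with at least 10 counts over the 16 libraries were tested, 22155 in number.

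All mice were female and of the C57/B6J strain, and the labels name no transgene or deletion. The AhR-poor diet (labelled SYNTH) was given from 5 wk of age for 3 wk. Each footpad then received 50 μl of PBS (vehicle: T100, T101, T102 and T103) or of PBS with 50 μg of papain (papain: T104, T105, T107 and T112), and the tissue was taken 6 hr later. The epidermis was split from the dermis with dispase II and dead cells were removed before RNA was extracted, so that each library stands for 1 mouse and holds every cell type that came with the epidermal sheet. Mice on the same diet shared a cage, and the sequencing unit of each library is not given by the labels.

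Papain is a cysteine protease of papaya that acts as an allergen when it meets skin or airway. Keratinocytes, the main cells of the epidermis, answer damage with stress keratins, antimicrobial proteins, cytokines and chemokines, and the chemokines draw neutrophils and monocytes from the blood. Type I interferon signaling, which any nucleated cell can mount, switches on a large group of antiviral genes through an interferon-stimulated response element (ISRE) in their promoters. AhR is a ligand-activated transcription factor, present in keratinocytes and in the Langerhans cells and T cells of the epidermis.

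Library totals ranged from 22500821 (T107) to 51844375 (T105) counts, and Krt10, a keratin of suprabasal keratinocytes, had the most counts in all 8 libraries. Levels are given as CPM, counts scaled to library size with TMM factors, and the detection limit of 3 counts lay at 0.0569 to 0.130 CPM. Correlations of log2 CPM were 0.988 to 0.991 between vehicle libraries, 0.986 to 0.990 between papain libraries and 0.964 to 0.980 across the groups. The first principal component held 58.9% of the variance and separated the groups, with T112 at 0.18 and the other papain libraries at 0.38 to 0.44, against -0.38 to -0.30 for vehicle. T112 was thus the papain library nearest to vehicle.

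More genes were higher with papain than lower, and the rises were larger. A gene was called when its adjusted p was below 0.01 and its log2 fold change was beyond 1 in either direction. By this rule 1338 genes (6.04% of those tested) were higher and 536 (2.42%) were lower with papain, while the median gene had a log2 fold change of -0.004. The median log2 fold change was 2.23 among the genes that rose (2.19 when genes with 3 counts or fewer over a group were set at their bound or raw ratio) and -1.35 among those that fell. Many rising genes were near silent with vehicle, since 705 of the 1338 had a vehicle mean below 1 CPM and 163 had 3 counts or fewer in every vehicle library. Of the 536 falling genes, 89 had a vehicle mean below 1 CPM and 41 had one above 100 CPM. The vehicle and papain levels did not overlap in 7306 of the 22155 genes tested, in 1271 of those that rose and in 530 of those that fell.

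**Figure D1:**
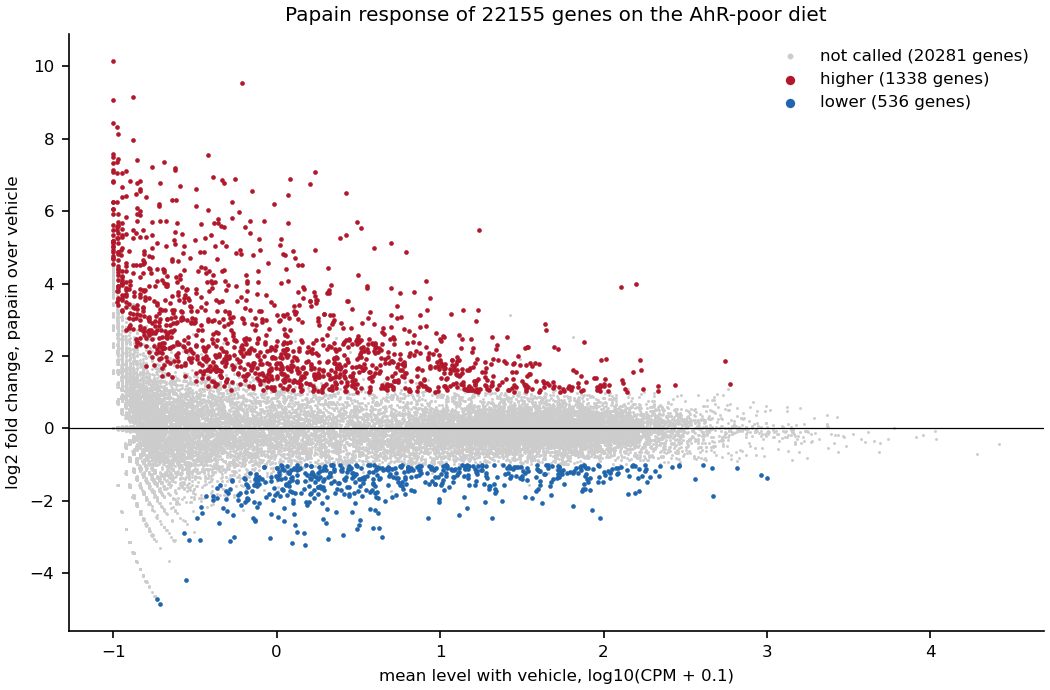
Each point is 1 of 22155 genes, placed by its mean level with vehicle (x axis, log10 of CPM with a small constant added) and its log2 fold change with papain (y axis). The 1338 genes called higher (red) reach far up where vehicle levels are low, whereas the 536 called lower (blue) form a narrower band under the line at 0.

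The papain libraries were not alike for all of these genes. T112 had the lowest papain level in 887 (66.3%) of the 1338 rising genes and T105 the highest in 815 (60.9%), against 23.8% and 30.6% among the 13253 genes with a mean of at least 1 CPM. The median ratio of T105 to T112 was 1.99 over the rising genes and 0.99 over the falling genes. Without T112, 1449 genes were higher and 535 lower, and without T105 the counts were 1138 and 510.

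**Figure D2:**
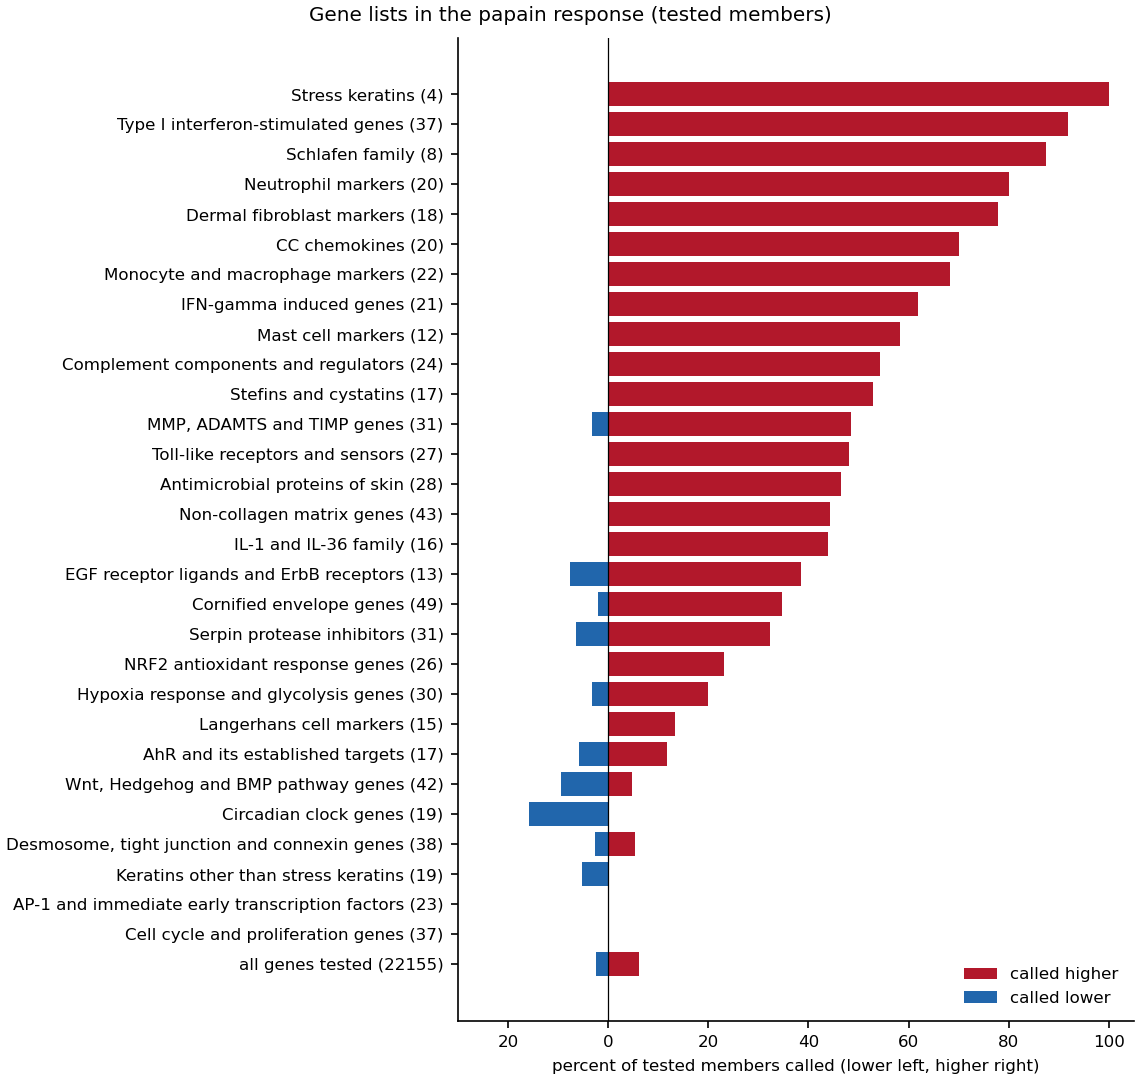
Bars give the percent of the tested members of each gene list that were called higher (red, to the right of 0) or lower (blue, to the left), with the number tested in parentheses. The stress keratins (4 of 4) and the interferon-stimulated genes (34 of 37) have the longest bars to the right, and the bar for all genes shows the 6.04% and 2.42% of all genes.

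The stress keratins were among the most abundant genes that rose. These are the keratins that keratinocytes make after injury and in hyperproliferative disease, and all 4 tested, Krt6a, Krt6b, Krt16 and Krt17, were called higher, with a median log2 fold change of 3.94. Krt16 (chr11:100246091-100248902 in GRCm38) stood at 164, 138, 195 and 137 CPM with vehicle and at 2135, 2111, 3295 and 2454 CPM with papain, a log2 fold change of 3.98 ± 0.31 (SE, adjusted p = 4.25e-07). Krt6b (chr15:101676023-101680287) went from 4.28 to 30.4 CPM across the vehicle libraries to 533 to 1046 CPM with papain. The groups were far apart for each of these genes, and T112 lay inside the range of the other papain libraries. Krt6a and Krt6b are close paralogs and reads could be split between them, and 600 of the 2418 exonic bases of Krt6a are shared with a gene on the other strand, so that their separate values are uncertain.

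In a list of 19 keratins of basal, spinous, palmoplantar and simple epithelium, none was called higher and only Krt15 was called lower. The main keratins of the basal layer and of the layers above it did not pass the test. Krt14 had a log2 fold change of -0.08 ± 0.12, Krt1 of 0.01 ± 0.16 and Krt10 of -0.44 ± 0.19. Krt15, a keratin of basal and hair follicle stem cells, was at 1325, 969, 975 and 737 CPM with vehicle and at 407, 423, 355 and 357 CPM with papain (log2 fold change -1.38 ± 0.17, adjusted p = 1.13e-05). Every papain library was below every vehicle library. Msn, which links actin to the membrane (216.9 ± 10.02 to 487 ± 28.2 CPM, SD, n = 4), and Urah, an enzyme of urate breakdown (170 ± 23.9 to 522 ± 34.9 CPM), were also among the most abundant genes that rose.

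Cornified envelope genes split by family. The envelope is the crosslinked protein shell of the outermost cells, and 17 of 49 tested genes were higher and 1 lower, with a median log2 fold change of 0.56 (0.45 with genes near absent from vehicle at their bound). Those that rose were Sprr4, 12 other small proline-rich genes and 4 late cornified envelope genes of the Lce3 group. No Lce1 gene was called. Sprr1a rose from 182, 141, 167 and 182 CPM to 567, 521, 859 and 549 CPM (log2 fold change 1.89 ± 0.20, adjusted p = 4.81e-06). Sprr2a3 rose from 1.03 ± 0.472 to 21.6 ± 6.29 CPM, although the Sprr2 genes are near-identical copies among which reads cannot be placed with certainty. Tgm3, an enzyme that crosslinks the envelope, fell from 655 ± 60.9 to 307 ± 56.5 CPM (log2 fold change -1.09 ± 0.13, adjusted p = 5.92e-06). Flg, which encodes filaggrin, was not called (log2 fold change -1.56 ± 0.64, adjusted p = 0.0794), with vehicle libraries from 16.9 to 64.6 CPM.

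Among 38 genes of desmosomes, tight junctions and gap junctions, 2 were higher and 1 lower, close to the shares over all genes. Gjb2, the connexin 26 gene that wounded epidermis turns on, was at 28.5, 43.7, 57.4 and 67.9 CPM with vehicle and at 211, 180, 320 and 228 CPM with papain (log2 fold change 2.25 ± 0.40, adjusted p = 7.24e-04). Dsg3, a desmosomal cadherin of the lower layers, rose from 135 ± 18.6 to 285 ± 20.02 CPM, and Tjp3, a tight junction scaffold, fell from 127 ± 20.9 to 60.3 ± 11.7 CPM. Ehf, an epithelial transcription factor, was the only one of 33 regulators of keratinocyte differentiation to be called, and rose from 18.7 ± 1.92 to 66.6 ± 7.70 CPM.

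Of 28 antimicrobial proteins 13 were called higher, 0 lower and 15 not called, with a median log2 fold change of 1.95. Lcn2, which binds bacterial siderophores, was at 4.25, 2.44, 2.35 and 1.15 CPM with vehicle and at 105.6, 107.6, 105.5 and 90.09 CPM with papain (log2 fold change 5.33 ± 0.28, adjusted p = 9.17e-09). Slpi, an inhibitor of leukocyte proteases, rose from 6.87 ± 1.596 to 94.0 ± 32.5 CPM, and Defb1, a beta-defensin, from 16.3 ± 1.42 to 57.1 ± 5.58 CPM. The papain levels of Lcn2 and Defb1 varied little between the 4 libraries, although T112 was the lowest for Lcn2. Chil3, a product of activated macrophages and neutrophils, rose as well but ranged from 5.14 CPM in T112 to 39.9 CPM in T105.

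Genes for proteases of the papain type and for their inhibitors were both among those that rose. Stefins and cystatins block cysteine proteases such as papain and the lysosomal cathepsins, and 9 of 17 were higher, none lower, with a median log2 fold change of 1.86. The stefin A gene Stfa1 was at 22.3, 18.7, 26.4 and 21.8 CPM with vehicle and at 109.7, 98.5, 106.7 and 123.2 CPM with papain (log2 fold change 2.30 ± 0.12, adjusted p = 6.50e-10). BC100530, another gene of the stefin A cluster on chromosome 16, rose from 43.5 ± 5.17 to 319 ± 42.8 CPM. Both had their highest papain level in T112. The stefin A genes are close copies, so that the values of single members are uncertain. Of 14 cathepsins and related lysosomal proteases, 6 rose. Ctsb, the cathepsin B gene, rose from 275 ± 21.1 to 631 ± 20.9 CPM and Lgmn, the legumain gene, from 34.4 ± 3.15 to 162 ± 20.6 CPM (log2 fold change 2.24 ± 0.13, adjusted p = 3.64e-09). The summed level of the cathepsin list lay between 831 and 931 CPM in the vehicle libraries and between 1442 and 1551 CPM in the papain libraries.

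Serpins, which inhibit mostly serine proteases, moved both ways, with 10 of 31 higher and 2 lower. Serpinb1a, an inhibitor of neutrophil elastase, had papain levels of 135, 120, 130 and 139 CPM against 15.4, 13.7, 12.9 and 12.5 CPM with vehicle (log2 fold change 3.27 ± 0.15, adjusted p = 3.53e-10). Serpina3n rose from 2.34 ± 0.725 to 90.3 ± 17.3 CPM. Serpinb10 fell from 73.6 ± 7.31 to 22.3 ± 1.10 CPM and Serpinb7 from 92.4 ± 8.17 to 45.5 ± 9.66 CPM. Of 27 epidermal kallikreins and related genes, 7 rose and 0 fell. Klk6 was the kallikrein with the largest rise, from 1.35 ± 0.483 to 16.5 ± 6.01 CPM, and Plaur, the urokinase receptor gene, went from 15.5 ± 2.86 to 66.2 ± 24.2 CPM.

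Metalloproteinase genes were also raised, with 15 of 31 members of the list of matrix metalloproteinases, ADAMTS proteases and their inhibitors higher and 1 lower. Mmp3, a stromelysin, rose from 6.81, 5.56, 4.48 and 4.64 CPM to 75.5, 49.8, 62.7 and 34.3 CPM (log2 fold change 3.37 ± 0.37, adjusted p = 1.17e-05). Timp1, the inhibitor that is secreted beside these enzymes, was at 0.300 to 0.470 CPM with vehicle and at 22.1 to 65.0 CPM with papain (log2 fold change 6.86 ± 0.32, adjusted p = 6.10e-10). Adam8, a membrane protease of activated epithelial and myeloid cells, rose from 32.8 ± 7.89 to 154 ± 33.0 CPM.

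**Figure D3:**
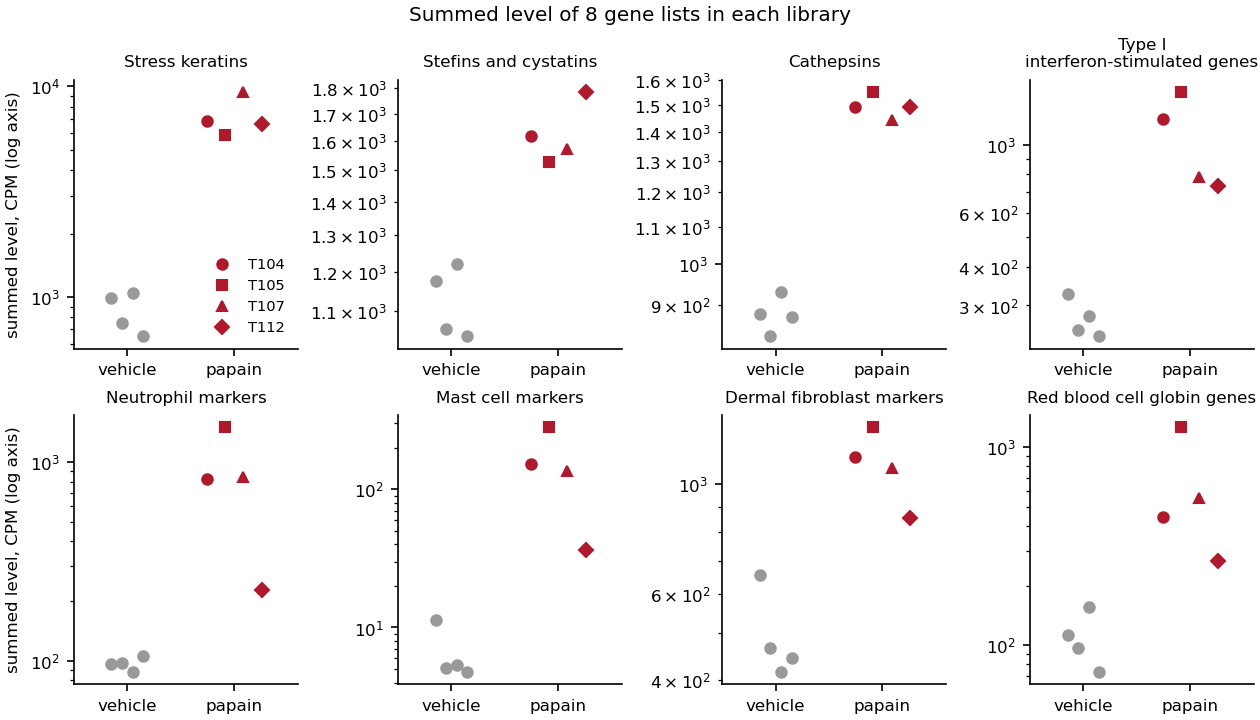
Points give the summed level of each list in each library on a log axis of CPM, in grey for the 4 vehicle libraries and in red for the papain libraries T104 (circle), T105 (square), T107 (triangle) and T112 (diamond). Stress keratins, stefins and cathepsins have similar papain levels in all 4 libraries, whereas neutrophil and mast cell markers span 229 to 1499 CPM and 36.2 to 280 CPM with T112 lowest.

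Epithelial growth factors and cytokines came next. Of 13 ligands and receptors of the EGF receptor family, 5 ligands were higher, 1 was lower, and no receptor was called. Epgn, the epigen gene, rose from 31.5, 18.1, 30.2 and 33.3 CPM to 109.3, 88.28, 116.4 and 85.93 CPM (log2 fold change 1.82 ± 0.36, adjusted p = 0.00157). Nrg1, which signals through ErbB3 and ErbB4, rose from 4.25 ± 1.17 to 19.0 ± 3.82 CPM, whereas its relative Nrg2 fell from 13.1 ± 1.26 to 6.18 ± 1.26 CPM. Pgf, a ligand of the VEGF receptor 1, rose from 2.32 ± 0.636 to 10.5 ± 2.85 CPM. Ltbp1, which stores latent TGF-β in the matrix, was the only member of the 26 tested TGF-β pathway genes to be called, with papain levels of 54.4, 47.4, 43.8 and 51.7 CPM against 14.6, 11.3, 12.7 and 11.8 CPM.

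In the alarmin list 2 of 13 genes were higher (15.4%) and 1 lower (7.69%), beside 6.04% and 2.42% over all genes. Il33 and Il25 were not called, with log2 fold changes of 0.09 and 0.03. Il1rl1, which encodes the IL-33 receptor ST2 found on mast cells and other leukocytes, was at 0.327, 0.291, 0.124 and 0.483 CPM with vehicle and at 33.7, 53.2, 47.0 and 15.9 CPM with papain (log2 fold change 6.93 ± 0.46, adjusted p = 7.62e-08). Il17rb, a subunit of the IL-25 receptor, fell from 17.27, 15.96, 15.87 and 17.11 CPM to 6.65, 6.15, 5.58 and 5.82 CPM (log2 fold change -1.45 ± 0.11, adjusted p = 4.72e-08). The receptors for IL-33 and IL-25 thus moved in opposite directions.

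Genes of other cytokine families were also called, more of them higher than lower. In the list of IL-20 subfamily cytokines and their receptors, which holds Il10 and its receptor chains, 5 of 11 were higher and 1 lower. Il10ra rose from 3.07 ± 0.688 to 16.6 ± 9.29 CPM and Il20rb, a keratinocyte receptor subunit for IL-19, IL-20 and IL-24, fell from 291 ± 34.9 to 140 ± 24.5 CPM. In the IL-6 family list, 5 of 16 were higher and 1 lower (median log2 fold change 0.96, or 0.72 with bounds). Osm was at 0.268 to 0.354 CPM with vehicle and at 5.66 to 30.9 CPM with papain, while Lifr, a subunit of receptors for LIF and oncostatin M, fell from 48.8, 42.7, 35.3 and 37.0 CPM to 18.8, 19.4, 17.8 and 16.2 CPM (log2 fold change -1.18 ± 0.15, adjusted p = 8.89e-06). Il4ra, the shared receptor chain for IL-4 and IL-13, rose from 40.8, 33.6, 38.6 and 39.8 CPM to 145.6, 131.7, 141.8 and 114.7 CPM (log2 fold change 1.80 ± 0.20, adjusted p = 5.99e-06). Il13 was also called, at 0.948 ± 0.187 and 2.16 ± 0.436 CPM (adjusted p = 0.00874), and Il4, with 0 to 0.0272 CPM with vehicle and 0.0433 to 0.285 CPM with papain, was not (adjusted p = 0.0292). The call of Il13 was lost when any library other than T112 was left out.

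The ligands of the CSF1 receptor moved in opposite directions. Il34, which keratinocytes secrete and Langerhans cells need, was at 131, 144, 141 and 150 CPM with vehicle and at 28.9, 44.6, 45.1 and 43.9 CPM with papain (log2 fold change -1.80 ± 0.15, adjusted p = 3.04e-07). Csf1 rose from 22.5 ± 1.63 to 83.6 ± 11.01 CPM (log2 fold change 1.89 ± 0.13, adjusted p = 1.17e-08). The groups did not overlap for either gene, and Csf1r itself had a log2 fold change of -0.15. In the list of myeloid growth factors and receptors 7 of 14 were higher, with Il34 the single member that fell. Csf3r, the receptor for G-CSF on neutrophils, rose from 0.608 ± 0.263 to 57.8 ± 38.9 CPM, with T112 lowest at 11.9 CPM and T105 highest.

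Langerhans cell markers were mostly not called. Of 15 tested, Ctss and Spi1, which other myeloid cells express too, were higher and none was lower. In 11 of the 15 the log2 fold change was positive, with a median of 0.20. The sum of the list was 1285 to 1464 CPM with vehicle and 1498 to 1748 CPM with papain. Cd207, the langerin gene, was at 55.2 ± 8.54 CPM with vehicle and at 33.7 ± 5.53 CPM with papain, where T112 was lowest (log2 fold change -0.71 ± 0.33, adjusted p = 0.122). The groups did not overlap, and the exact permutation test of the 4 against 4 libraries gave p = 0.0286, the smallest it can give, but the fold change did not pass the test over all genes. Such separation was common, found in 7306 of the 22155 genes tested. Among 18 genes of Langerhans cell maturation, 7 were higher. Ccr7, the receptor that guides dendritic cells to lymph nodes, rose from 1.63, 1.09, 1.14 and 1.13 CPM to 14.1, 8.36, 11.9 and 6.09 CPM (log2 fold change 3.02 ± 0.37, adjusted p = 1.04e-05), and Fscn1, an actin bundler of migrating dendritic cells, from 9.29 ± 2.13 to 41.8 ± 10.3 CPM. Of 14 markers of dendritic epidermal T cells, Thy1 and Ptprc were called higher, both of which other cells carry as well, while Trdc was not (log2 fold change 0.73 ± 0.35). In bulk libraries of this kind, a change in the number of cells of a type and a change in RNA per cell cannot be told apart.

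Chemokine genes rose widely. Of 20 CC chemokines 14 were higher and none lower, with a median log2 fold change of 2.89, and of 14 CXC and CX3C chemokines 6 were higher and none lower, with a median of 1.22 (0.98 with bounds). Cxcl2, which draws neutrophils through CXCR2, was at 12.4, 15.2, 13.6 and 27.2 CPM with vehicle and at 168, 283, 148 and 52.6 CPM with papain (log2 fold change 3.26 ± 0.43, adjusted p = 6.29e-05). Ccl3 rose from 0.691 ± 0.142 to 21.03 ± 14.9 CPM and Ccl7, a ligand of CCR2, from 1.63 ± 0.588 to 20.7 ± 8.58 CPM. In all 3 genes T112 was the lowest and T105 the highest papain library. The homeostatic skin chemokines Ccl27a and Cxcl14 were not called, with log2 fold changes of 0.24 and -0.49.

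Genes of neutrophils carried the largest rises. Of 20 neutrophil markers 16 were higher and none lower, and their median log2 fold change was 6.22 (6.20 with bounds). S100a9, a subunit of calprotectin, was at 1.88, 1.80, 1.24 and 1.10 CPM with vehicle and at 169, 272, 170 and 31.0 CPM with papain (log2 fold change 6.74 ± 0.63, adjusted p = 4.02e-06). Trem1, an activating receptor of myeloid cells, was at 0.215 to 0.327 CPM with vehicle and at 12.2 to 99.2 CPM with papain. Ly6g had no count in any vehicle library and 0.218 to 2.51 CPM with papain, a call that DESeq2 did not make, and Camp, Ltf and Ngp, which encode granule proteins made before neutrophils leave the marrow, were not called. These 3 genes had low counts, with vehicle means of 0.060, 0.087 and 0.093 CPM and papain means of 0.131, 0.386 and 0.92 CPM. Ngp was at 0.985, 1.42, 1.255 and 0.0272 CPM in T104, T105, T107 and T112, against 0 to 0.188 CPM with vehicle. Summed over the list, neutrophil markers stood at 97.1 ± 7.54 CPM with vehicle and at 829, 1499, 847 and 229 CPM in T104, T105, T107 and T112.

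Many genes with the largest folds overall moved over the libraries in this way. The 15 largest rises among well-counted genes included Slfn4, Acod1, Clec4d, Hdc, Timp1, S100a9, Il1b, Clec4e, S100a8, Ifi204, Ccr1, Oasl2, Cd14 and Osm, and T112 was the lowest papain library for each of these. Acod1, which makes itaconate in activated macrophages and neutrophils, was at 1.33, 1.59, 1.88 and 1.64 CPM with vehicle and at 217, 461, 153 and 45.8 CPM with papain (log2 fold change 7.09 ± 0.97, adjusted p = 9.46e-05). Il1b, the IL-1β gene, was at 1.99 to 3.19 CPM with vehicle and at 223, 431, 220 and 59.7 CPM with papain (log2 fold change 6.50 ± 0.74, adjusted p = 2.01e-05). Hdc, which makes histamine, rose from 1.11 ± 0.200 to 131 ± 92.3 CPM. Groups that do not overlap were a condition for entering this ranking. The part that the neutrophil markers, which moved with these genes over the libraries, play in their rise was not tested. Without T112 the log2 fold changes of Slfn4, Acod1, Il1b and S100a9 were 9.87, 7.42, 6.82 and 7.08. Without T112, 18 of 20 neutrophil markers, 14 of 20 CC chemokines and 7 of 12 mast cell markers were called higher. For interferon-stimulated genes it was 35 of 37. The medians, in that order, were 6.56, 2.99, 3.03 and 3.74. T112 was the lowest papain library for these genes and for the sums of these lists. Larger folds without it therefore follow from which library was left out, and do not check the rise.

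Monocyte and macrophage markers (15 of 22 higher, median log2 fold change 2.32) and mast cell markers (7 of 12 higher, median 2.78) also rose. Ly6c2, a marker of inflammatory monocytes, went from 0.142 ± 0.105 to 11.5 ± 8.81 CPM. The mast cell proteases Cma1 and Mcpt4 went from 0.414 ± 0.398 to 3.68 ± 1.66 CPM and from 0.608 ± 0.541 to 4.49 ± 2.24 CPM. The sum of the mast cell list was 4.77 to 11.3 CPM with vehicle and 36.2 to 280 CPM with papain, and most of the papain sum was Hdc, which neutrophils make too. Of 16 T, NK and B cell markers other than those of epidermal T cells, Il2ra and Gzmb were called higher.

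Type I interferon-stimulated genes rose almost without exception. Of 37 tested, 34 were higher, none lower, and the 3 others (Irf9, Cmpk2 and Eif2ak2) had positive log2 fold changes of 0.95, 1.62 and 0.69. The median log2 fold change of the list was 3.50. The promoters of 4 of these genes are shown, those with the largest log2 fold change among the members called with a mean of at least 1 CPM and a promoter in the RefSeq table.

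The sequences run from 250 bases before the start of transcription to 50 after it (RefSeq, GRCm38.p6), 5′ to 3′ on the strand of the gene, and capitals mark matches to GAAANNGAAA or to its reverse complement, the letters searched for the ISRE.
Ifit1bl2 (chr19:34640694-34640993, minus strand): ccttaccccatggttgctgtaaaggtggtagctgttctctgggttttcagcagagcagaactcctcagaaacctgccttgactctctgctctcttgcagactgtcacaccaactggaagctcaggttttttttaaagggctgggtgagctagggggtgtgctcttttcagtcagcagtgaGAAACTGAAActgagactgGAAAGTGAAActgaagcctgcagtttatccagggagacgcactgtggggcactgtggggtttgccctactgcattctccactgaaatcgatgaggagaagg
Ifit3 (chr19:34583279-34583578, plus strand): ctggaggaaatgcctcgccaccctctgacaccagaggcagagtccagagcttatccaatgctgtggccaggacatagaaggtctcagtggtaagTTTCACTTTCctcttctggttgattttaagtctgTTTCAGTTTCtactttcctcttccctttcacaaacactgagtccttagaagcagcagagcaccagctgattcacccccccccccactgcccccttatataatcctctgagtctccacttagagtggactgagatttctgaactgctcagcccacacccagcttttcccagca
Rsad2 (chr12:26456403-26456702, minus strand): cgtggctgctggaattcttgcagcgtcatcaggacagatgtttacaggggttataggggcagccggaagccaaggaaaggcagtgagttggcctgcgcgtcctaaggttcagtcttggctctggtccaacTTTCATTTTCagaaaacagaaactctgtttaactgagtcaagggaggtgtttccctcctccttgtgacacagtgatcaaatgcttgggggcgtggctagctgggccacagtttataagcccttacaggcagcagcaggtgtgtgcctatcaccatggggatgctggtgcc
Ifit3b (chr19:34607707-34608006, plus strand): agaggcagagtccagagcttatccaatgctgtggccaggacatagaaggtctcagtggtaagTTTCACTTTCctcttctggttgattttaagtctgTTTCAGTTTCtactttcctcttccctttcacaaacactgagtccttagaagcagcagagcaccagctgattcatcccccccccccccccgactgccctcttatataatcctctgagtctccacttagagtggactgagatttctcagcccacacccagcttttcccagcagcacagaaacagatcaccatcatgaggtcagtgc

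Ifit1bl2, Ifit3 and Ifit3b each hold 2 matches and Rsad2 holds 1, all within the 250 bases before the start. Over all promoters of tested genes in the table, 546 of 17242 (3.17%) held a match, against 19 of 33 promoters (57.6%) of 27 genes of the interferon list, 8.999% of 1189 promoters of genes called higher and 11 of 458 (2.40%) of genes called lower. Rsad2, the viperin gene, was at 0.300, 0.477, 0.223 and 0.510 CPM with vehicle and at 47.3, 86.6, 21.8 and 8.73 CPM with papain (log2 fold change 6.77 ± 0.85, adjusted p = 3.94e-05). Ifit3 was at 0.0989 to 0.185 CPM with vehicle and at 3.83 to 42.8 CPM with papain (log2 fold change 7.15, adjusted p = 2.76e-04), and Ifit3b, a near copy with which it may exchange reads, rose from 0.128 ± 0.124 to 10.1 ± 8.02 CPM. Ifit1bl2 had 1 count over the 4 vehicle libraries, which gives a ratio of 474 with a 95% counting interval of 84.6 to 18756. Ifitm3, the most abundant gene of the list, rose from 152 ± 37.9 to 449 ± 69.6 CPM.

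Other motifs were looked for in the same promoters. A kB match (GGGNNTTTCC) was held by 3.36% of promoters of genes called higher, 1.09% of those called lower and 1.69% of all. An AP-1 match (TGANTCA) was held by 11.9%, 4.37% and 6.18%, and an AhR response element core (TNGCGTG) by 3.20%, 4.37% and 7.05%. Both strands were read and matches of different motifs may overlap. These shares describe letters in a window and say nothing of binding.

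The sum of the interferon list ranged from 238 to 328 CPM with vehicle and was 1214, 1483, 784 and 736 CPM in T104, T105, T107 and T112. The spread over papain libraries was larger for members that were near silent with vehicle, such as Rsad2, than for Ifitm3. Interferon genes themselves were hardly counted. Ifnb1 had no count with vehicle and 0.0739 and 0.664 CPM in T104 and T105 only (adjusted p = 0.120), and Ifng was not called (log2 fold change 0.19), whereas the receptor chain Ifngr1 rose from 38.2, 34.7, 31.7 and 31.0 CPM to 92.9, 92.4, 90.6 and 97.3 CPM (log2 fold change 1.46 ± 0.09, adjusted p = 3.03e-09). Of 21 genes known for induction by IFN-γ, 13 were higher and none lower. The Schlafen family, growth regulators of which several respond to interferon, had 7 of 8 members higher. Slfn4 (chr11:83175186-83190216) was at 0.297 to 0.627 CPM with vehicle and at 415, 783, 253 and 75.5 CPM with papain, and T112 was the lowest papain library.

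Antigen presentation genes rose in part. Of 21 genes of the MHC class I pathway 9 were higher and none lower, among them the 3 immunoproteasome subunits Psmb8, Psmb9 and Psmb10, which were the only called genes of 49 named with the prefix Psm. Nlrc5, the transactivator of class I genes, was at 10.8, 10.5, 9.07 and 9.44 CPM with vehicle and at 49.4, 66.7, 49.9 and 47.5 CPM with papain (log2 fold change 2.42 ± 0.25, adjusted p = 3.89e-06). Of 10 class II genes only Ctss was called. H2-Ab1 had a log2 fold change of 0.15 ± 0.32.

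Among pattern recognition genes the calls lay with receptors and sensors. Of 27 tested, 13 were higher and none lower, and the adaptors and kinases Myd88, Ticam1, Tirap, Irak1 and Irak4 were not called. Irak4 still went from 20.7 ± 2.26 to 36.6 ± 1.69 CPM, Myd88 from 89.2 ± 14.9 to 125 ± 8.22 CPM and Tirap from 8.01 ± 0.802 to 11.7 ± 0.778 CPM. In these genes the groups did not overlap, as in 7306 of the 22155 genes tested. Cd14, which helps TLR4 bind lipopolysaccharide, rose from 2.98 ± 0.302 to 154.2 ± 100.5 CPM and Clec7a, the receptor for fungal glucan, from 6.38 ± 0.965 to 41.0 ± 25.6 CPM. Tmem173, which encodes STING, had papain levels of 37.6, 27.4, 22.9 and 33.1 CPM against 1.42 to 4.69 CPM with vehicle (log2 fold change 3.52 ± 0.39, adjusted p = 1.27e-05). In the list of inflammasome, caspase and gasdermin genes 6 of 25 were higher and 1 lower. Nlrp3 rose from 7.06, 11.8, 8.70 and 18.4 CPM to 91.0, 198, 92.4 and 28.9 CPM (log2 fold change 3.16 ± 0.55, adjusted p = 5.57e-04), Gsdmc rose from 52.7 ± 8.83 to 243 ± 36.9 CPM, and Nlrp10, an NLR of keratinocytes, fell from 33.9 ± 6.33 to 12.8 ± 2.65 CPM. Gsdmc was highest in T112, at 282 CPM, while Nlrp3 was lowest there.

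Metabolic and redox genes were called in smaller shares. Of 26 targets of NRF2, the regulator of the antioxidant response, 6 rose and none fell. Gsta4, a glutathione transferase for lipid peroxidation products, was at 7.57, 8.79, 12.7 and 5.26 CPM with vehicle and at 82.2 to 121 CPM with papain (log2 fold change 3.61 ± 0.29, adjusted p = 7.96e-07), and Slc7a11, the cystine importer, rose from 3.04 ± 0.703 to 57.0 ± 25.2 CPM. Gclc, Gclm, Srxn1 and Txnrd1, which are also NRF2 targets, were not called. Txnrd1 still went from 42.4 ± 7.84 to 74.9 ± 10.45 CPM, Gclm from 35.8 ± 1.76 to 43.3 ± 3.43 CPM and Srxn1 from 27.7 ± 5.36 to 36.8 ± 3.90 CPM. Gclc was at 41.2 ± 3.19 and 38.8 ± 3.13 CPM. Of the 26 genes 21 had a positive log2 fold change, with a median of 0.36. Of 30 hypoxia and glycolysis genes 6 rose and 1 fell. Slc16a3, a lactate exporter, rose from 4.91 ± 0.326 to 72.9 ± 40.2 CPM and Epas1, which encodes HIF-2α, fell from 61.2, 84.29, 74.95 and 109.2 CPM to 21.2, 25.7, 31.8 and 23.5 CPM (log2 fold change -1.69 ± 0.20, adjusted p = 1.10e-05).

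In the prostaglandin and leukotriene list, 5 of 29 rose and 1 fell. Ptges, the terminal prostaglandin E2 synthase, rose from 75.7, 54.1, 74.1 and 68.4 CPM to 197, 178, 220 and 204 CPM (log2 fold change 1.55 ± 0.14, adjusted p = 2.97e-07), and the epidermal lipoxygenases Alox12 and Alox12e (the latter from the list of barrier lipid genes) fell from 53.9 ± 15.1 to 22.7 ± 7.47 CPM and from 365 ± 61.1 to 138 ± 8.58 CPM. In the list of ceramide and barrier lipid genes 3 of 35 were higher (Cers2, Sgms2 and Lipk, with log2 fold changes of 1.44, 1.90 and 2.37) and 2 lower, Alox12e and Sptlc3. The shares were 8.57% higher and 5.71% lower, beside 6.04% and 2.42% over all genes. Sptlc3, a subunit of the enzyme that begins ceramide synthesis, fell from 81.5 to 140 CPM over the vehicle libraries to 33.5 to 54.5 CPM. Of 32 cholesterol and fatty acid synthesis genes only Scd2 was called, and fell from 264 ± 85.4 to 127 ± 18.6 CPM. That call was lost without T102, T103, T104 or T105 and in a fit of the 8 libraries alone, with adjusted p up to 0.0159. In the retinoid list 5 of 23 were higher and 2 lower. The dehydrogenase genes Aldh1a2, Aldh1a3, Dhrs9 and Rdh16 rose by log2 fold changes of 4.09, 3.39, 2.40 and 1.39. Fabp5, a lipid carrier, rose from 591.9 ± 108.6 to 1388 ± 221 CPM, whereas Bco1, which cleaves carotene, fell from 3.09 ± 0.496 to 0.512 ± 0.329 CPM and Stra6, the retinol receptor, from 5.80 ± 0.901 to 1.79 ± 0.540 CPM.

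Among 17 genes of the AhR list 2 rose (11.8%) and 1 fell (5.88%), beside 6.04% and 2.42% over all genes. The classical targets were not called. Cyp1a1 was at 1.06, 2.09, 0.668 and 1.05 CPM with vehicle and at 1.80, 1.54, 1.17 and 2.18 CPM with papain (log2 fold change 0.47 ± 0.44, adjusted p = 0.460). The groups overlapped. Ahr (log2 fold change -0.17 ± 0.14), Ahrr (-0.07 ± 0.32) and Tiparp (0.19 ± 0.18) did not pass the test. Nqo1, a quinone reductase that is a target of both AhR and NRF2, rose from 6.14 ± 1.67 to 31.3 ± 6.64 CPM.

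Markers of dermal cells and of blood were higher with papain too. Of 18 fibroblast markers 14 were higher and none lower (median log2 fold change 1.94), and their sum was 416 to 654 CPM with vehicle and 856 to 1305 CPM with papain. Of 7 red blood cell genes 4 were higher, and their sum was 73.3 to 156 CPM with vehicle and 267 to 1254 CPM with papain. Of 15 endothelial markers 4 were higher, and their sums of 29.2 to 77.9 CPM with vehicle and 59.1 to 125 CPM with papain overlapped. No marker of the 3 lists was at 0 in all vehicle libraries. Muscle, Schwann cell, melanocyte and Merkel cell markers held no gene called by edgeR or DESeq2, and 0 of 11, 2 of 10, 1 of 10 and 1 of 7 had an unadjusted p below 0.05. The part of these cells in the rises of matrix, vessel and blood genes was not tested.

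Some matrix genes rose beside the fibroblast markers. Of 43 non-collagen matrix genes 19 were higher and none lower, with a median log2 fold change of 1.09. Their summed levels overlapped, at 2331 to 3602 CPM with vehicle and 2691 to 4440 CPM with papain. Pdgfra, a fibroblast receptor, was at 2.32, 1.24, 0.742 and 2.04 CPM with vehicle and at 20.8, 27.8, 27.5 and 11.1 CPM with papain (log2 fold change 3.78 ± 0.40, adjusted p = 4.39e-06). Thbs4 rose from 1.34 ± 0.810 to 30.7 ± 16.3 CPM, Has1, a hyaluronan synthase, from 4.30 ± 1.18 to 27.4 ± 11.1 CPM and Dcn, the decorin gene, from 33.8 ± 11.6 to 161 ± 51.1 CPM. Of 29 collagen chains 9 were higher and 3 lower, but the summed collagen level was lower with papain (4190 to 4634 CPM) than with vehicle (4733 to 5598 CPM). Col1a1 rose from 24.4 ± 5.63 to 88.9 ± 33.3 CPM, while Col4a5 and Col4a6, basement membrane chains that keratinocytes make, fell from 82.7 ± 16.5 to 32.2 ± 5.46 CPM and from 75.4 ± 8.08 to 25.9 ± 5.66 CPM.

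In the list of keratinocyte integrins and hemidesmosome genes, 1 of 19 was higher (Itga5) and 1 lower (Dst), with a median log2 fold change of 0.03. These were shares of 5.26% each, beside 6.04% higher and 2.42% lower over all genes. Dst, which anchors keratins to the hemidesmosome, was at 835, 1058, 814 and 956 CPM with vehicle and at 323, 405, 388 and 389 CPM with papain (log2 fold change -1.28 ± 0.12, adjusted p = 2.72e-07), and 1493 of its 41155 exonic bases are shared with a gene on the other strand. Frem2 fell from 45.9, 43.0, 42.1 and 37.0 CPM to 8.15, 12.3, 9.26 and 10.3 CPM (log2 fold change -2.06 ± 0.27, adjusted p = 4.04e-05), and Fras1, which forms a complex with it beneath the basal cells, from 9.72 ± 1.98 to 2.39 ± 0.620 CPM. The integrins Itga6 and Itgb4 of the same junction were not called, with log2 fold changes of 0.03 and 0.24. Among 9 basal keratinocyte markers 2 were lower (Krt15 and Dst), and among 10 suprabasal markers none was called by edgeR or DESeq2, with 5 at an unadjusted p below 0.05.

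**Figure D4:**
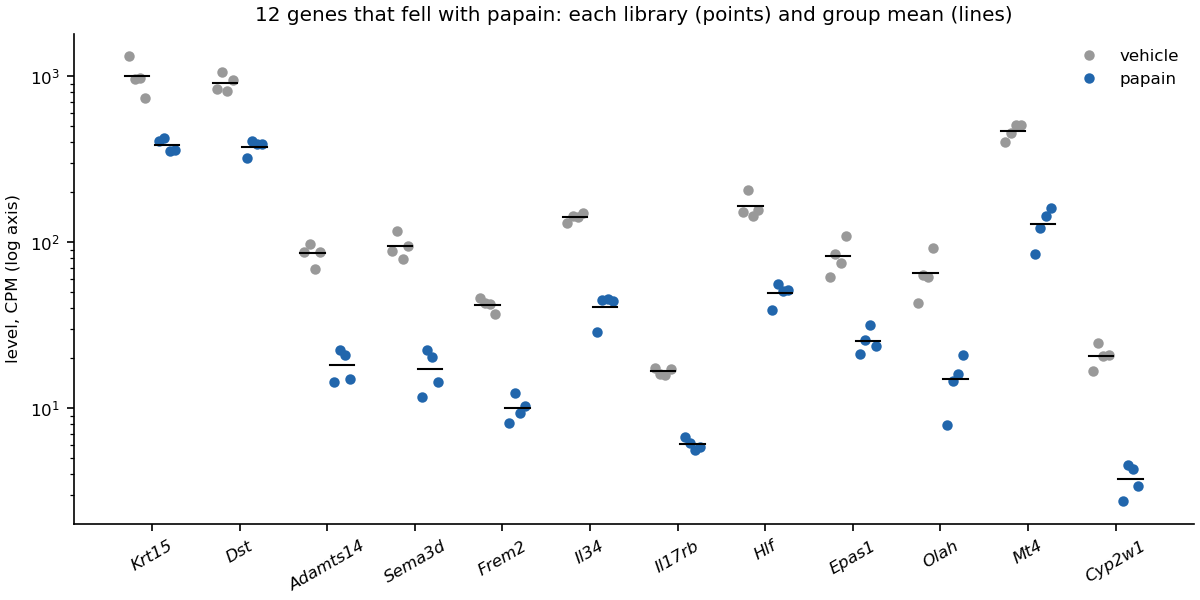
Points are the CPM of each library on a log axis, grey for vehicle and blue for papain, and lines are the group means of 12 genes that fell. In each gene every papain library lies below every vehicle library, and the groups did not overlap in 530 of the 536 genes called lower. For Adamts14, Sema3d, Frem2, Olah, Mt4 and Cyp2w1 this was a condition of the ranking by fall.

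By the rule for the 15 largest falls among well-counted genes, the list was Cyp2w1, Sema3d, Rgn, Adamts14, Slc4a9, Olah, Frem2, Fras1, Slc6a2, Papln, Skint7, Heph, Ttc28, Itih5 and Mt4. Sema3d, a secreted guidance factor, was at 88.9, 116, 79.2 and 94.8 CPM with vehicle and at 11.6, 22.5, 20.2 and 14.4 CPM with papain (log2 fold change -2.46 ± 0.36, adjusted p = 1.29e-04). Adamts14, a procollagen-processing protease, fell from 85.4 ± 11.8 to 18.1 ± 4.13 CPM, and Mt4, a metallothionein of stratified epithelium, from 467 ± 51.8 to 128 ± 32.4 CPM. Skint7 belongs to a family of keratinocyte proteins whose founding member selects epidermal T cells, and fell from 9.76 ± 2.31 to 2.53 ± 0.489 CPM. The spread over papain libraries was small for these genes beside that of the largest rises.

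A few developmental and clock genes were among those that fell. In the list of Wnt, Hedgehog and BMP genes 4 of 42 were lower (9.52%) and 2 higher (4.76%), beside 2.42% and 6.04% over all genes. The median log2 fold change of this list was -0.38. Wnt6 fell from 14.7, 10.6, 12.7 and 9.87 CPM to 5.56, 3.57, 3.55 and 4.30 CPM (log2 fold change -1.49 ± 0.19, adjusted p = 7.16e-06), and Wnt3a from 10.8 ± 1.37 to 4.38 ± 0.424 CPM. Of 19 clock genes 3 were lower, all of the family of PAR bZIP output factors (Dbp, Tef and Hlf), and the median log2 fold change of the list was -0.74. Hlf was at 151, 205, 144 and 157 CPM with vehicle and at 39.2, 55.9, 50.5 and 51.1 CPM with papain (log2 fold change -1.74 ± 0.16, adjusted p = 6.85e-07). The hour of the day of each injection is not given by the labels.

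Some lists that inflammation often moves were not called here. None of 23 AP-1 and immediate early genes was called by edgeR or by DESeq2, with a median log2 fold change of -0.34, although 10 had an unadjusted p below 0.05, 9 of them negative. Fos was at 4860 ± 815 CPM with vehicle and at 3105 ± 208 CPM with papain. None of 37 cell cycle genes was called by either tool (median -0.31), with 20 at an unadjusted p below 0.05 and 16 of these negative. None of 13 mitochondrial transcripts was called by either tool (median -0.22), with 1 at an unadjusted p below 0.05. In the fit across all genes Fos had an adjusted p of 6.09e-04 at a log2 fold change of -0.65 ± 0.13, and Mki67, a marker of cycling cells, an adjusted p of 5.09e-04 at -0.76 ± 0.14, so that both missed the call by their fold. None of 15 genes known to respond to warm dissociation was called by either tool, 11 had an unadjusted p below 0.05, all negative, and their summed level was 21913 to 36027 CPM with vehicle and 18271 to 22316 CPM with papain. Of 365 genes named Zfp, 2 were higher and 6 lower with a median of -0.28.

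The response on the AhR-poor diet was then set beside that on the I3C diet, which has its own vehicle libraries. On the I3C diet papain raised 818 genes (3.69%) and lowered 1171 (5.29%). Of the 1338 genes that rose on the AhR-poor diet, 522 (39.0%) were called higher on I3C and 1123 had the same sign, and of the 536 that fell, 444 (82.8%) were called lower on I3C and 534 had the same sign. The difference itself passed at an adjusted p below 0.05 for 73 genes (0.329%), of which 41 were among those that rose on the AhR-poor diet and 2 among those that fell. For most genes called on the AhR-poor diet only, a difference between the diets was therefore not shown.

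The genes that rose on both diets and those called on the AhR-poor diet only differed in how they varied over the 4 papain libraries. Over the 522 genes called on both diets, the median ratio of T105 to T112 was 1.03 and T112 was lowest in 33.9%. Over the 816 genes called higher on the AhR-poor diet alone, the median ratio was 2.77, T112 was lowest in 87.0% and T105 highest in 80.1%. Median log2 fold changes of the stress keratins were 3.94 here and 4.47 on I3C, and those of the stefins 1.86 and 2.63. CC chemokines had 2.89 and 0.10, fibroblast markers 1.94 and -0.29, and mast cell markers 2.78 and -0.01. The vehicle libraries of the diets already differed in several lists, among them blood, vessel, mast cell, Langerhans cell and class II genes. Blood markers summed to 73.3 to 156 CPM on the AhR-poor diet and to 0.316 to 3.07 CPM on I3C. Vessel markers were at 29.2 to 77.9 against 5.58 to 7.65 CPM, and mast cell markers at 4.77 to 11.3 against 1.61 to 2.10 CPM. Langerhans cell markers were at 1285 to 1464 against 614 to 991 CPM, and class II genes at 710 to 792 against 179 to 446 CPM. Vehicle sums of CC chemokines and of fibroblast markers overlapped between the diets. The part of these vehicle differences in the diet comparison was not tested. Interferon-stimulated genes rose in both, with medians of 3.50 and 2.28 and 34 and 21 of 37 called.

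**Figure D5:**
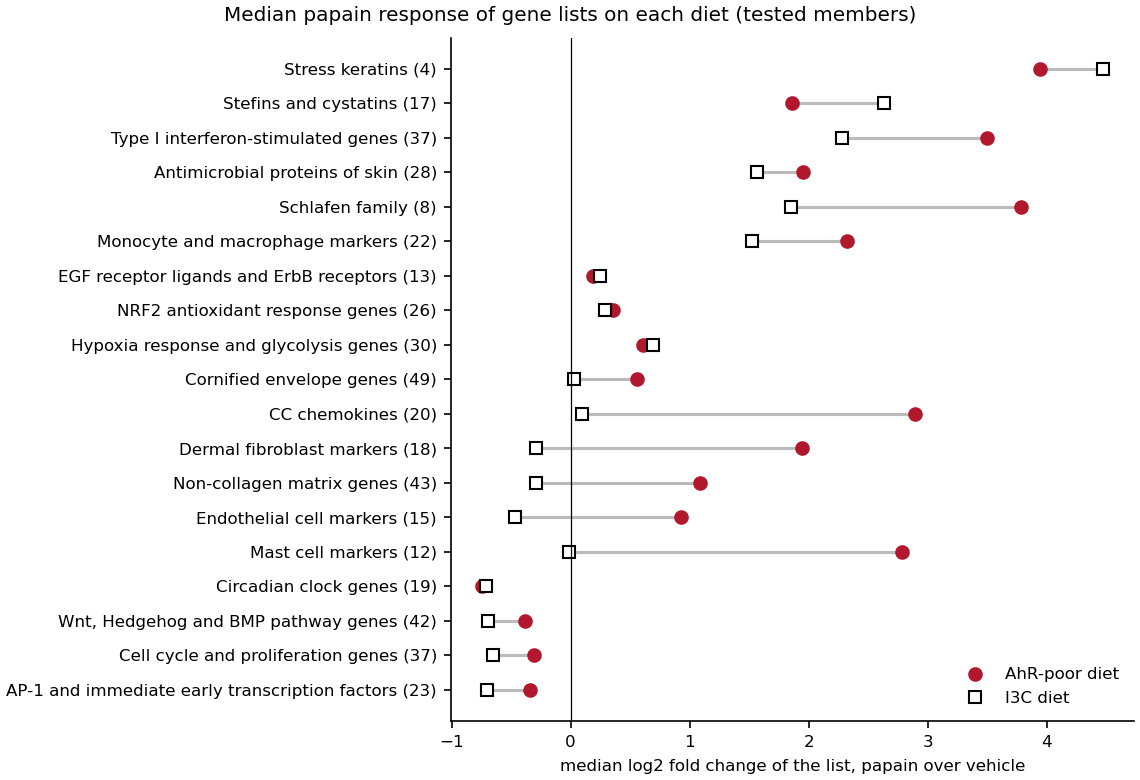
For each list, the red circle is the median log2 fold change with papain on the AhR-poor diet and the open square that on the I3C diet, with the number of tested members in parentheses. EGF receptor, NRF2, hypoxia and clock lists lie close together on the diets, whereas CC chemokines, fibroblast, non-collagen matrix and mast cell lists lie near or below 0 on I3C. The lists were not tested for this difference.

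At an adjusted p below 0.01 and a difference beyond 1 on the log2 scale, 4 genes (0.0181%) differed in their response. Sulf1, which removes sulfate from heparan sulfate chains, was at 4.33, 3.97, 3.76 and 5.58 CPM with vehicle and at 6.92, 9.37, 6.75 and 3.43 CPM with papain on the AhR-poor diet, where it was not called (adjusted p = 0.0961). On I3C it went from 4.20 ± 1.39 to 0.595 ± 0.114 CPM, and the difference in log2 fold change was 3.41 ± 0.41 (adjusted p = 0.00127). Akap12, a scaffold of protein kinase A, rose from 1.28 ± 0.314 to 5.56 ± 2.11 CPM on the AhR-poor diet and had a log2 fold change of -0.88 on I3C (difference 3.01 ± 0.40, adjusted p = 0.00305). Efemp1, the fibulin-3 gene, and Glul, the glutamine synthetase gene, fell on both diets, and less in mice without I3C, by log2 fold changes of -1.31 against -2.95 and of -1.12 against -2.49 (adjusted p = 0.00127 and 0.00439). The number of such genes depended on the tool and on single libraries. With DESeq2 205 genes passed. Without T112 95 genes passed, without T100 15, and without T101, T102 or T104 2 each.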

How the data were processed

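RNA from epidermal cells of 16 mice had been sequenced as 100-nt paired reads after a stranded mRNA preparation. The authors deposited raw counts per Ensembl gene, and their notes name FastQC, STAR, DESeq2 and mm10; the counting tool and its strand setting are not given in the sources used here. Of 50600 gene rows, 50376 took symbols and positions from GENCODE M21 (GRCm38, the same build), and 224 had no match. Genes reaching 10 counts over all libraries were fitted with edgeR 4.0.16 (R 4.3.3; TMM, robust quasi-likelihood F test) in 1 model with 4 groups, and the difference between diets was its interaction contrast. P-values were adjusted by Benjamini-Hochberg over all genes. Calls needed a log2 fold change beyond 1 in size at an adjusted p under 0.01. Where a group of libraries held no count, folds were taken against a floor of 3 counts. Intervals and floors cover counting error only. DESeq2 1.42.0, other scalings, filters and thresholds, and leaving out each library were alternatives. The pipeline was tested on simulated data. Each mouse was 1 replicate. Mice on a diet shared a cage, which p-values do not cover.

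The gene lists were chosen with earlier results of these data known. Genes were named as members of the lists, as the 15 largest rises and falls among genes with a mean of at least 5 CPM, at least 10 counts in each of the 8 libraries and groups that do not overlap, as the 10 most abundant genes called in each direction, or as genes called in the diet contrast; which list members to describe was in part chosen after their values were seen. Promoters came from a RefSeq table (GRCm38.p6). Some genes that met these rules are not reported here.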

Additional observations from a re-analysis of the deposited data

Results flagged for a closer look

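Single libraries stood apart from the other 3 of their group in 30 of 524 sets of values examined, and chance flags about 1 in 20. Among summed lists with papain, EGF receptor genes were high in T107 (1028 CPM, others 907 to 917) and junction genes were low in T104 (16465 CPM, others 20976 to 21867). With vehicle, T103 was high for serpins (2413 CPM, others 2067 to 2102) and complement (269 CPM, others 226 to 231), and low for cell cycle genes (2305 CPM, others 2855 to 2886) and epidermal T cell markers (110 CPM, others 142 to 149). T100 was high for wound growth factors (2623 CPM, others 2117 to 2173) and mast cell markers (11.3 CPM, others 4.77 to 5.37), and T102 was low for the IL-6 family (466 CPM, others 506 to 513).

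Among single genes with papain, T104 was low for Krt1 (4090 CPM), Il34 (28.9 CPM) and Itih5 (7.49 CPM). T107 was high for Sprr1a (859 CPM) and low for Sprr2a3 (12.3 CPM). T112 was low for Lcn2 (90.1 CPM) and Ly6g (0.218 CPM), and T105 was high for Nlrc5 (66.7 CPM) and Ifnb1 (0.664 CPM). With vehicle, T100 was high for Ccr7 (1.63 CPM), Oasl2 (1.36 CPM), Cd14 (3.43 CPM), Mcpt4 (1.42 CPM) and Ifit1bl2 (0.0272 CPM). T101 was low for Epgn (18.1 CPM), Csf1 (20.1 CPM) and Il4 (0 CPM) and high for Ticam1 (19.5 CPM). The vehicle levels of Ifit1bl2 and Il4 all lay below the detection limit of 3 counts, so that their flags show no difference between libraries. T103 was high for Il10ra (4.10 CPM) and low for Csf3r (0.215 CPM) and Glul (133 CPM).

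The papain response differed between the diets at an adjusted p below 0.05 (edgeR interaction test) for 6 of 183 genes named in the text. Over all genes tested it was 73 of 22155 (0.329%). Sulf1, Akap12, Efemp1 and Glul were named because this same contrast called them, so that their passing was fixed in advance. The log2 fold change was larger on the AhR-poor diet by 3.98 for Dcn (2.25 against -1.73, adjusted p = 0.0165), by 3.03 for Aldh1a3 (3.39 against 0.36, adjusted p = 0.0128), by 3.41 for Sulf1, by 3.01 for Akap12, by 1.65 for Efemp1 and by 1.37 for Glul.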

How the results depend on the processing

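The count of genes higher with papain (1338) became 865 when at least 10 counts were asked of each of the 8 libraries and 2749 with no minimum fold change, and the count of lower genes (536) became 2228 with no minimum fold change. Leaving out 1 library gave 1138 to 1449 higher and 451 to 535 lower genes. The 4 genes whose response differed between the diets became 205 with DESeq2, 7 with a filter of at least 1 count in total, 10 with library size alone and 63 at an adjusted p below 0.05 with the same minimum difference of 1, and leaving out 1 library gave 2 to 95, the highest without T112. The cause of these shifts was not tested. The log2 fold change of the median gene stayed between -0.02 and 0.02 under every scaling. Of 144 called genes named in the text none reversed under any alternative that was run, and 14 lost the call under at least 1 (Alox12, Ctss, Il13, Il20rb, Ly6g, Nrg2, Ptprc, Scd2, Serpinb7, Sgms2, Sprr4, Tef, Tgm3 and Tjp3), Ly6g under 10 and Il13 under 7. No paired analysis was possible because the library codes are not shared between groups. Depth limits genes near the floor, since 163 of the genes called higher had 3 counts or fewer in every vehicle library.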
